A study of Mus musculus with 6 samples.

Results

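The podocyte lineage transcription factors are 8 genes that specify or maintain podocytes and their precursors in the kidney: Wt1, Tcf21, Foxc1, Foxc2, Foxd1, Lmx1b, Osr1 and Gata3. They were taken by name from the 57132 genes of the count table, after the version was removed from each Ensembl identifier and symbols were assigned from GENCODE M21, and all 8 were found. RNA-seq compared 3 samples of immortalized WT podocytes, labelled Col4a3+/+, with 3 samples of immortalized AS podocytes, labelled Col4a3-/-, a model of Alport syndrome in which a chain of the type IV collagen of the glomerular basement membrane is missing. Per the labels, both came from the kidney of adult male mice aged 8 weeks, received no treatment, were grown at 33 °C and differentiated for 14 days at 37 °C, with interferon gamma at 20 U/mL; the study's methods give a shorter differentiation and a lower dose that was withdrawn at the higher temperature. Both lines carry the H-2kb-tsA58 transgene, an interferon-inducible, temperature-sensitive large T antigen that keeps cells dividing at the lower temperature. Each genotype is represented by 1 line, so the effects of genotype and of line cannot be told apart, and whether the 3 samples of a line were separate cultures is not stated, so that p-values measure only the spread between these samples.

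Podocytes are the epithelial cells whose foot processes cover the outside of the glomerular capillary. Wt1 is a zinc finger factor that acts first in the nephron progenitors and then stays on in the mature podocyte, where it drives genes of the slit diaphragm and cytoskeleton together with Tcf21, a basic helix-loop-helix factor, the forkhead factors Foxc1 and Foxc2, and Lmx1b, a LIM homeodomain factor mutated in nail-patella syndrome. Osr1 marks the intermediate mesoderm from which the kidney arises, Foxd1 marks stromal progenitors and is also present in podocyte precursors, and Gata3 marks the nephric duct and is kept in mesangial cells.

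In brief, Wt1 was 8.23-fold lower and Lmx1b 10.5-fold higher in AS podocytes, Osr1 and Foxc1 were lower by smaller amounts, Foxc2 was slightly higher, Foxd1 and Gata3 did not pass the test, and Tcf21 had no read in any sample. Expression is given as CPM, a count relative to the TMM-scaled library size, and a gene is called higher or lower where edgeR's quasi-likelihood test gave an adjusted p under 0.05 over all 16263 genes that passed the filter on low counts. Of the 8 members 7 passed that filter, and 5 of these were called, 2 higher and 3 lower, beside 40.1% of all genes tested (20.4% higher and 19.6% lower). With so large a share of the transcriptome called, the number of members called carries little information, whereas the size of the change in Wt1 and Lmx1b lay farther out among the genes tested. Among the 12912 genes tested with a mean of at least 1 CPM, 1.56% changed as much as Wt1 and 1.21% as much as Lmx1b. The groups did not overlap in 6 of the 7 members tested, beside 52.3% of all genes tested.

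The start regions of 3 members are shown because these members stand for the 3 patterns seen: the gene that rose most (Lmx1b), the gene with the highest CPM (Foxc1) and the gene with no read (Tcf21). Each is the run of 250 bases before the RefSeq start of the gene on GRCm38.p6, read in the direction of transcription. Lmx1b lies on the minus strand (chr2:33641099-33641348), Foxc1 on the plus strand (chr13:31806396-31806645) and Tcf21 on the minus strand (chr10:22820144-22820393). Capitals mark matches to any of the motifs listed after the sequences.
Lmx1b: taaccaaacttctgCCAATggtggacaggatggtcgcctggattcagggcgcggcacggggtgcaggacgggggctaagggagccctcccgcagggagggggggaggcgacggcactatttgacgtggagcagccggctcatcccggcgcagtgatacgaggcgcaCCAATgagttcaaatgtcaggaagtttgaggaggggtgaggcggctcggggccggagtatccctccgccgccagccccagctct
Foxc1: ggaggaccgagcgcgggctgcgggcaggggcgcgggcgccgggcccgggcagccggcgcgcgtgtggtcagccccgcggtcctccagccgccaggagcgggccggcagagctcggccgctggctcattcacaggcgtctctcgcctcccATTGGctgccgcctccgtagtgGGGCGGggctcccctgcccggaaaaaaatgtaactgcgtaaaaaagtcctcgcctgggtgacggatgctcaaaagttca
Tcf21: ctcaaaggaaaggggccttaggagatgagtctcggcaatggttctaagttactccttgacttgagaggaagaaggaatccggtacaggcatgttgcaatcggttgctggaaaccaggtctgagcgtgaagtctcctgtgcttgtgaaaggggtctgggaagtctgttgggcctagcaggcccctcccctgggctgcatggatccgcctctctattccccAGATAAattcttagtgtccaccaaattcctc

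The motifs searched, on both strands, were GGGCGG (the GC box), CCAAT (named by its letters), TATAAA (the core promoter box), TGTTTAC (bound by forkhead factors), AGATAA (bound by Gata factors), CAGCTG (an E-box), TAATTA (bound by homeodomain factors) and GCGGGGGCG (bound by EGR factors and WT1). The Lmx1b region held 2 CCAAT matches and none of the other motifs. In the Foxc1 region 1 GC box and 1 CCAAT box, the latter on the opposite strand, were found. The Tcf21 region held 1 AGATAA match and nothing else from the list. In GENCODE M21, Tcf21 starts 31 bases before its RefSeq start, at the first base of this match. By that annotation the match lies within the gene and not before it. No match overlapped another. Over the 32841 regions of the same length in the RefSeq table, 33.9% held CCAAT, 32.7% held GGGCGG, 13% held CAGCTG, 12.4% held TATAAA, 9.99% held AGATAA, 4.84% held TAATTA, 3.17% held TGTTTAC and 2.57% held GCGGGGGCG. The regions also differed in composition: Foxc1 had 70.8% GC and 29 CpG dinucleotides, Lmx1b had 65.2% GC and 19 CpG, and Tcf21 had 52.4% GC and 5 CpG, beside medians of 52.4% and 6 over all regions. Foxd1 and Gata3 also matched the table, and Wt1, Foxc2 and Osr1 did not. A match of letters is a description of the sequence, and binding was not measured.

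The libraries held between 45417221 and 54290968 counts. Samples of a line correlated at r = 0.988 to 0.992 over genes and samples of different lines at 0.952 to 0.956, while mitochondrial genes took 0.882% to 1.68% of WT and 1.3% to 2.02% of AS counts. Col4a3, the gene knocked out in the AS line, was at 938, 1052 and 1272 CPM in the WT line and at 62.4, 61.2 and 83.0 CPM in the AS line, and the groups did not overlap. The podocyte label was set against 15 podocyte markers, whose summed level was 2730 to 3180 CPM in the WT line and 2120 to 2310 CPM in the AS line. Synpo, an actin-associated protein of the foot process, was one of the main parts of that sum with 803 ± 44.2 CPM in the WT line and 526 ± 30.8 CPM in the AS line (SD, n = 3 each), and the more widely expressed Dag1 and Actn4, named after their values were seen, each added at least as much to the sum in CPM. By contrast, Nphs1, which encodes nephrin of the slit diaphragm, had 24, 22 and 21 counts in the WT line and 2, 4 and 0 in the AS line. Nephrin, a defining marker of the mature podocyte, was thus low in the WT line and near the limit of detection in the AS line.

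The factors best known from the mature podocyte, Wt1, Tcf21 and Lmx1b, behaved in 3 different ways. Wt1 (ENSMUSG00000016458.16, chromosome 2) had 1309, 714 and 957 counts in the WT line and 132, 74 and 173 counts in the AS line. This corresponded to 25.8, 15.3 and 20.7 CPM in the WT line and 2.93, 1.44 and 3.14 CPM in the AS line, with means of 20.6 ± 5.28 and 2.50 ± 0.928 CPM (SD, n = 3 each). The highest AS sample lay well below the lowest WT sample, and the samples of each line also varied, with a coefficient of variation of 25.6% in the WT line and 37.1% in the AS line. The log2 fold change was -3.04 (standard error 0.28, edgeR adjusted p = 3.57e-05), an 8.23-fold lower level in AS podocytes. In bulk RNA, fewer cells that express a gene and less of its RNA per cell cannot be told apart. Leaving out any 1 sample or changing the fit kept the change between -3.25 and -2.77. Wt1os, a non-coding gene annotated on the opposite strand beside Wt1, had 40, 9 and 32 counts in the WT line and 5, 5 and 5 counts in the AS line and was too low to be tested. The annotation used here gives no overlap between Wt1 and Wt1os. Whether reads were counted by strand is not given, and their reads cannot be told apart where other annotations overlap, although Wt1os held far fewer.

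Lmx1b (ENSMUSG00000038765.15, chromosome 2) moved the opposite way. It had 50, 25 and 30 counts in the WT line and 375, 380 and 405 counts in the AS line. Its CPM was 0.986, 0.534 and 0.650 in the WT line and 8.33, 7.39 and 7.36 in the AS line, with means of 0.724 ± 0.235 and 7.69 ± 0.548 (SD, n = 3 each). All AS samples lay close together and above all WT samples. The log2 fold change was 3.40 (standard error 0.22, edgeR adjusted p = 3.73e-06), a 10.5-fold higher level in AS podocytes, and it stayed between 3.22 and 3.69 in the alternatives tried. The AS level remained modest: per kilobase of exon Lmx1b ranked at percentile 8.29 of the genes tested in the WT line and at percentile 35.2 in the AS line, while Wt1 went from percentile 47.6 to 18.5. Thus the line with more Lmx1b was the line with less Wt1.

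Tcf21 (ENSMUSG00000045680.9, chromosome 10) had 0 counts in each of the 6 samples. With 3 counts over a group as the limit, a level of up to 0.0209 CPM in the WT line and of up to 0.0198 CPM in the AS line is allowed by counting error. Tcf21 was therefore not detectable at this depth in either line, and a difference between the lines could not be tested. Its neighbours in gene order were read, however. Tbpl1 and Eya4, the nearest genes tested on either side, were both called higher in AS podocytes, with log2 fold changes of 0.50 and 0.31 (edgeR adjusted p = 0.000413 and 0.00816), beside a median of 0.31 over the 758 genes tested on chromosome 10.

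**Figure D1:**
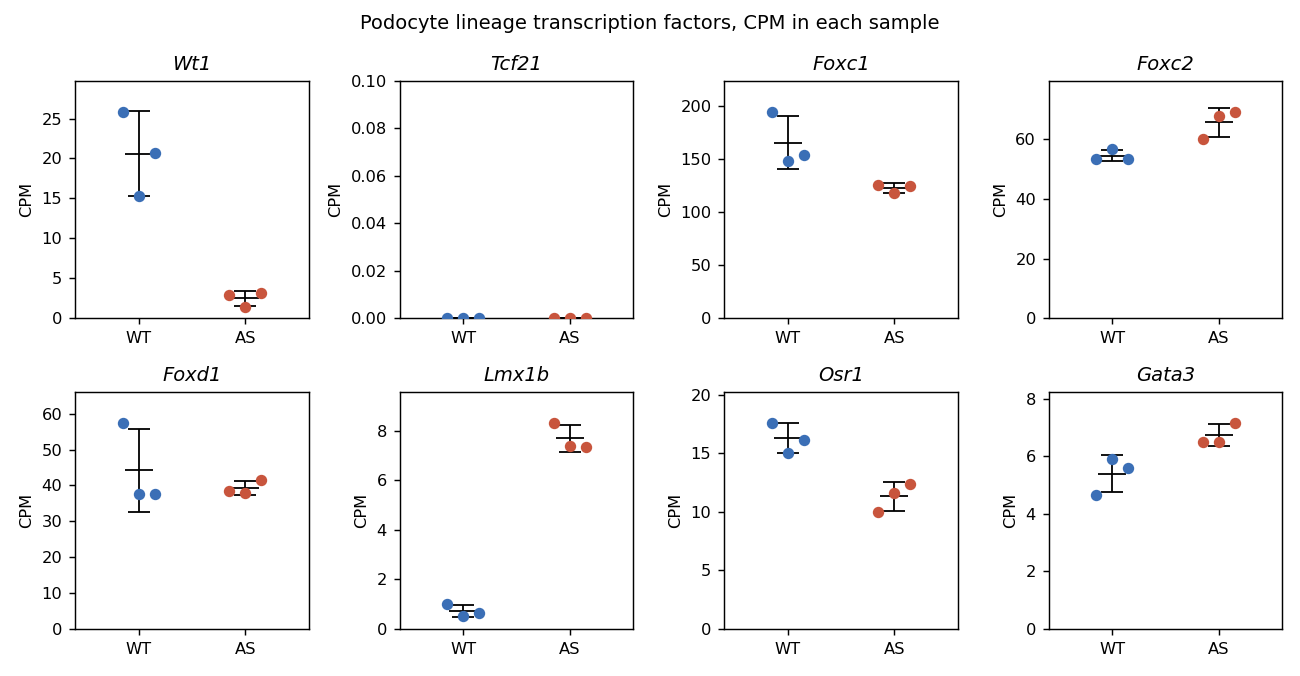
CPM of the 8 members in each sample, 1 panel per gene with its own axis from 0. Points are samples (blue, WT; red, AS), the bar is the mean and the whiskers are 1 SD (n = 3). The groups stand far apart in Wt1 and Lmx1b, close together in Foxc2 and Gata3, overlap in Foxd1, and lie at 0 in Tcf21.

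Among the forkhead members, Foxc1 and Foxc2, paired factors with overlapping roles in the nephron and in podocyte maintenance, differed in direction. Foxc1 (ENSMUSG00000050295.5, chromosome 13) was at 194, 148 and 154 CPM in the WT line and at 125, 118 and 125 CPM in the AS line, with means of 165 ± 25.1 and 122 ± 4.35 (SD, n = 3 each). Each AS sample lay below each WT sample, and WT replicate 1 was the highest. The log2 fold change was -0.43 (standard error 0.096, edgeR adjusted p = 0.00586), and without WT replicate 1 it was -0.30 (edgeR adjusted p = 0.00142). Foxc1 kept 0.741 of its WT level in AS podocytes and stayed the member with the highest CPM in both lines.

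Foxc2 (ENSMUSG00000046714.8, chromosome 8) was at 53.4, 56.6 and 53.4 CPM in the WT line and at 60.1, 67.7 and 69.2 CPM in the AS line, with means of 54.5 ± 1.85 and 65.7 ± 4.90 (SD, n = 3 each). The AS samples lay just above the WT samples. The log2 fold change of 0.27 (standard error 0.068, edgeR adjusted p = 0.0111) passed the test with all samples, but without AS replicate 3 it was 0.23 with an adjusted p of 0.0523. The change was also not larger than that of its chromosome, since the 890 genes tested on chromosome 8 had a median log2 fold change of 0.31 and Foxc2 lay at -0.036 relative to it. As large a change as that of Foxc2 was seen in 46.2% of the genes tested with a mean of at least 1 CPM.

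Foxd1 (ENSMUSG00000078302.6, chromosome 13), the stromal progenitor factor, was at 57.5, 37.6 and 37.6 CPM in the WT line and at 38.5, 37.8 and 41.4 CPM in the AS line, with means of 44.2 ± 11.5 and 39.2 ± 1.91 (SD, n = 3 each). Apart from WT replicate 1, all samples lay within a narrow band and the groups overlapped. The log2 fold change was -0.17 (standard error 0.15, edgeR adjusted p = 0.392), and without WT replicate 1 it was 0.061 (adjusted p = 0.499), so no direction can be given. WT replicate 1 was the highest WT sample for Wt1, Lmx1b, Foxc1, Foxd1 and Osr1. It also had the lowest mitochondrial share of the libraries, and the part of that in the values was not tested. Without it, the log2 fold change was -2.85 for Wt1, 3.69 for Lmx1b and -0.46 for Osr1.

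The factors of earlier kidney development had smaller log2 fold changes than Wt1 and Lmx1b. Osr1 (ENSMUSG00000048387.9, chromosome 12) was at 17.6, 15.1 and 16.2 CPM in the WT line and at 9.99, 11.6 and 12.4 CPM in the AS line, with means of 16.3 ± 1.28 and 11.3 ± 1.23 (SD, n = 3 each). No AS sample reached the lowest WT sample. The log2 fold change was -0.52 (standard error 0.11, edgeR adjusted p = 0.00424), or 0.697 of the WT level. Gata3 (ENSMUSG00000015619.11, chromosome 2) was at 4.68, 5.92 and 5.61 CPM in the WT line and at 6.51, 6.52 and 7.18 CPM in the AS line, with means of 5.40 ± 0.648 and 6.73 ± 0.385 (SD, n = 3 each). Although the AS samples lay above the WT samples, the log2 fold change of 0.32 (standard error 0.14, edgeR adjusted p = 0.0891) did not pass the test, here or in any alternative fit, where the adjusted p was 0.076 to 0.23. Gata3 shares 155 exon bases with the antisense gene Gm13256, which had 2, 2 and 1 counts in the WT line and none in the AS line, and 77 with 9230102O04Rik, which had none.

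**Figure D2:**
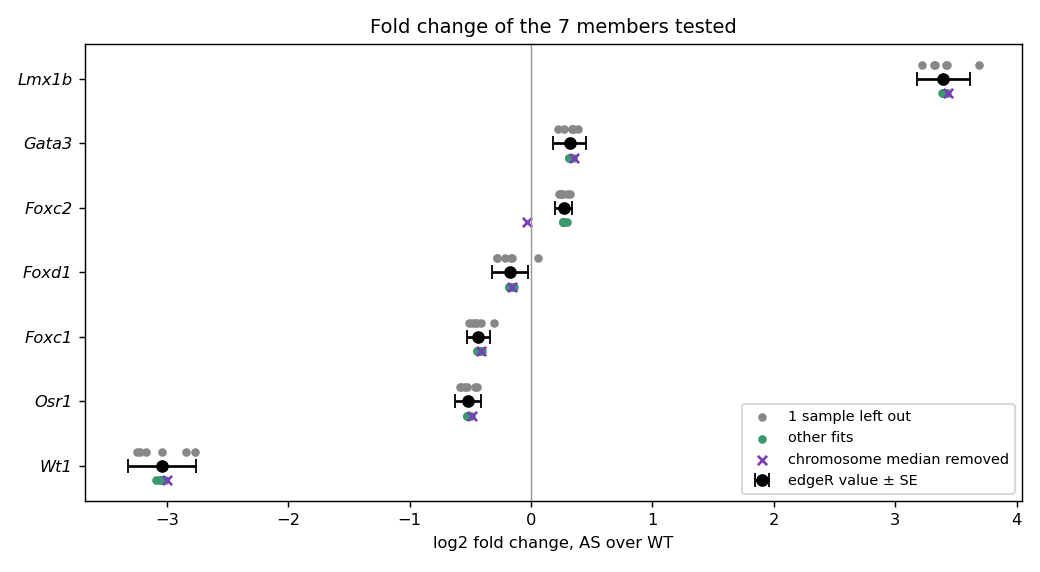
Log2 fold change, AS over WT, of the 7 members tested. Black points with bars are edgeR values ± SE, gray points leave out 1 sample, green points are other fits, and purple crosses subtract the median of the chromosome. Wt1 and Lmx1b stay near -3.04 and 3.40, the values of Foxd1 lie on both sides of 0, and the cross of Foxc2 lies at -0.036.

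Levels of different genes were compared per length, as CPM per kilobase of exon. In WT podocytes the order was Foxc1 at 28.3 (25.4 to 33.2 over the samples), Foxc2 at 20, Foxd1 at 8.74, Osr1 at 7.88, Wt1 at 3.33, Gata3 at 1.36 and Lmx1b at 0.148, with Tcf21 at 0. Each gene was above the next in 3 of 3 samples, except that Foxd1 was above Osr1 in 2 of 3, and the ranges of those neighbours overlapped. In AS podocytes the order was Foxc2 at 24.1, Foxc1 at 21, Foxd1 at 7.75, Osr1 at 5.49, Gata3 at 1.69, Lmx1b at 1.58 and Wt1 at 0.404, again with Tcf21 at 0. Gata3 was above Lmx1b in 2 of 3 AS samples, and every other neighbour was ordered the same way in 3 of 3. Between the lines, Wt1 and Lmx1b exchanged places around Gata3, and Foxc1 and Foxc2 exchanged the first and second place. Whether the ratio of Foxc1 to Foxc2 differs between the lines was not tested. The level of Wt1 depends on the length used, since with the longest transcript in place of all exons it was at 6.67 in the WT line and 0.811 in the AS line, while its place in either order was the same.

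Genes next to a member in gene order were compared with it. The nearest genes of Wt1 were not called with it: Eif3m and Rcn1, on either side, had log2 fold changes of -0.063 and 0.0043 (edgeR adjusted p = 0.399 and 0.963). Of the 10 nearest genes tested 3 were called higher and none lower, beside 20.4% and 19.6% of all genes tested. Lmx1b had a neighbour that rose with it. C130021I20Rik, a non-coding gene on the opposite strand, was at 0.434, 0.235 and 0.260 CPM in the WT line and at 5.64, 5.74 and 5.54 CPM in the AS line. All AS samples were far above the WT samples, and the log2 fold change was 4.17 (standard error 0.24, edgeR adjusted p = 1.59e-06). Its annotated start lies within the Lmx1b sequence shown above, 95 bases before the RefSeq start of Lmx1b, so that the genes are read away from each other. The annotation used here gives no overlap between them, but whether reads were counted by strand is not given, and their reads cannot be told apart where other annotations overlap. On the other side, Zbtb43 had a log2 fold change of 0.21 (edgeR adjusted p = 0.0318).

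Foxc2 lies in a cluster of forkhead genes whose other members had larger log2 fold changes, although the differences between them were not tested. Foxl1, the next gene, went from 0.448 ± 0.252 to 2.84 ± 0.134 CPM (SD, n = 3 each), which is 2.67 on the log2 scale (edgeR adjusted p = 0.000297). Foxf1 had a log2 fold change of 1.36 (adjusted p = 0.000514) and its non-coding neighbour Fendrr, named after its values were seen, one of 1.97 (adjusted p = 0.00282), whereas Mthfsd, which lies between them and Foxc2, had a value of 0.20 and did not pass the test. Of the 10 genes around Foxc2, 7 were called higher and none lower, with a median of 0.61, beside 20.4% called higher over all genes tested and a median of 0.31 on chromosome 8. Around Foxc1, Gmds and the non-coding Gm11379 were called lower with it (-0.59 and -1.63, edgeR adjusted p = 0.000555 and 0.0287), as was the nearby Foxq1 (-1.22, adjusted p = 0.0191), though its groups overlapped, while Foxf2 was called higher (0.91, adjusted p = 0.00604). Beside Osr1, Ttc32 had a value of -0.075 and did not pass the test, and Gm5182, a processed pseudogene whose reads may come from its parent gene, was called higher (2.43, adjusted p = 0.000137). The nearest genes of Foxd1 (Gm9828 and Gm4815) and of Gata3 (Celf2 and Taf3) did not pass the test.

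**Figure D3:**
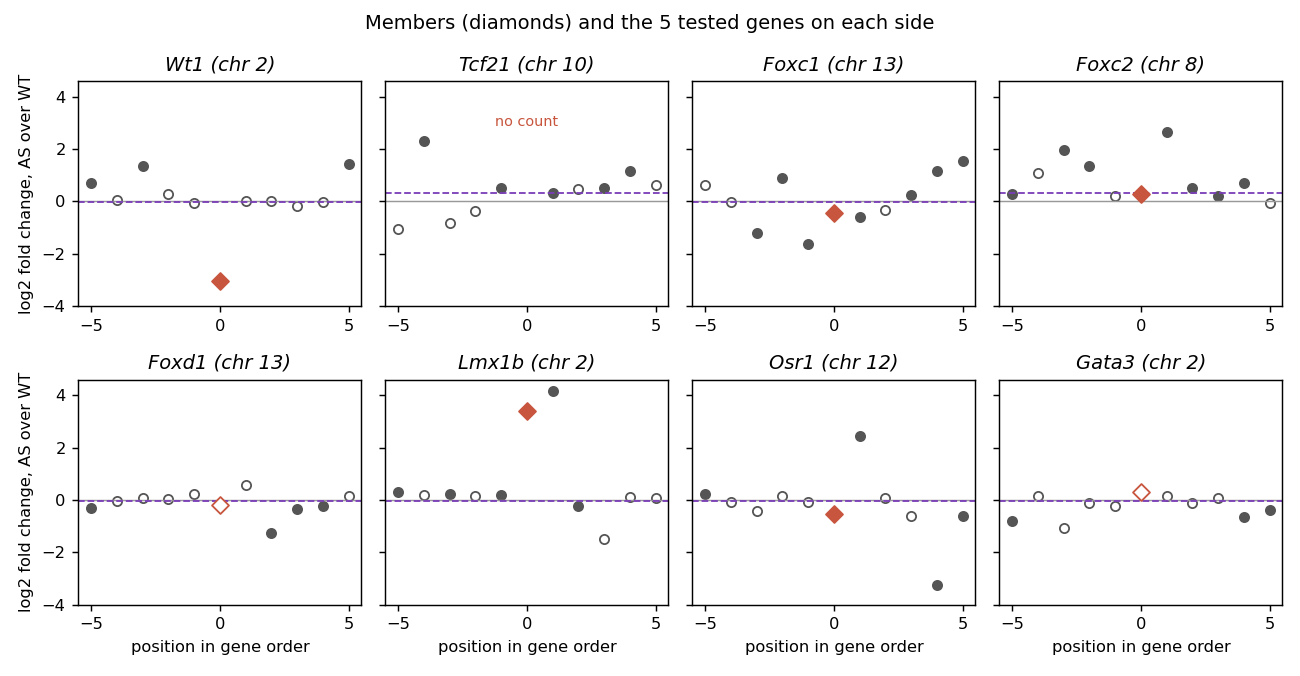
Log2 fold change, AS over WT, of each member (diamonds) and the 5 genes tested on each side in gene order. Filled symbols were called by edgeR, open ones were not, and the dashed line is the median of the chromosome. Wt1 lies at -3.04, while 7 of its 10 neighbours were not called and 3 were called higher, up to 1.45. The gene to the right of Lmx1b lies at 4.17.

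Genes with the most similar pattern over the 6 samples were sought by distance between log2 CPM values centred on their mean, among 12771 genes with a symbol and a mean of at least 1 CPM. Nearest to Wt1 were Ptgis, the prostacyclin synthase (distance 0.44, r = 0.995), and Slain1, a microtubule-associated protein (distance 0.506, r = 0.994). Nearest to Lmx1b were Tnfaip2 (distance 0.36, r = 0.998) and the forkhead gene Foxs1 (distance 0.379, r = 0.996). Within a distance of 0.5 lay 1 gene for Wt1 and 4 for Lmx1b. This distance grows with the size of a change and the spread of the samples, so these counts do not measure how rare a pattern is. The other members had between 1690 (Osr1) and 5900 (Foxc2) genes that close, so that their nearest genes carry little information. Those were Prex2 and Ncam1 for Foxc1, Timm21 and Zfp251 for Foxc2, Nfkbia and Pcna-ps2 for Foxd1, 2310030G06Rik and Acvr2b for Osr1, and Parp10 and Kdelr3 for Gata3. Such a correlation over 6 samples largely follows the difference between the lines, so that it is given as a description.

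Related factors were counted in the same fit. Of 50 paralogs (other Fox and Gata genes, Osr2, Lmx1a, Tcf23 and Tcf24), 27 were tested, 11 were called higher and 3 lower, beside 20.4% and 19.6% of all genes tested, and the median log2 fold change was 0.18 beside 0.0061 over all genes tested. Foxs1, found in pericytes and other perivascular cells, went from 1.97 ± 0.421 to 22 ± 3.22 CPM (SD, n = 3 each; log2 fold change 3.47, edgeR adjusted p = 6.03e-07). Gata2, best known from blood-forming and endothelial cells, went from 1.44 ± 0.612 to 14.2 ± 1.58 CPM (3.31, adjusted p = 8.56e-06), and Gata6 rose from 9.40 to 24.6 CPM (1.38, adjusted p = 6.48e-06). These 2 members of the Gata family therefore moved beyond their replicate spread where Gata3 did not pass the test, although the difference between them and Gata3 was not tested. Foxo3, Foxp2, Osr2 and Foxk1 were also called higher, with log2 fold changes of 0.79, 0.83, 1.72 and 0.19, whereas Foxm1, which drives genes of cell division, and Foxj3 were called lower (-1 and -0.30). Over the genes tested on their chromosomes, the medians were, in the same order, 0.31, -0.20, 0.20 and 0.19, then -0.20 and -0.17. Foxk1 thus lay near the median of its chromosome. Foxa2 had no count in the WT line and 0.73 CPM in the AS line, at least 35-fold higher against 3 counts over the WT group. The median was the same with Foxa2 at this bound. Lmx1a, the closest relative of Lmx1b, had at most 6 counts in a sample and was not tested.

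Of 34 other transcription factors of podocytes and the nephron, 32 were tested. Of these, 11 were called higher and 9 lower, beside 20.4% and 19.6% of all genes tested. Their median log2 fold change was 0.089. Irx2 and Irx1, Iroquois factors of the developing nephron, fell most, from 17.4 ± 1.02 to 0.158 ± 0.0944 CPM and from 6.82 ± 0.429 to 0.348 ± 0.191 CPM (SD, n = 3 each; log2 fold changes -6.81 and -4.28, edgeR adjusted p = 7.08e-08 and 9.07e-06). Emx2, a homeodomain factor of the ureteric bud and early nephron, and Twist1, a factor of mesenchyme, rose with log2 fold changes of 1.61 and 1.59 (adjusted p = 4.24e-06 and 1.05e-06).

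Partners and cofactors of the members had small log2 fold changes for the most part. Of 20 genes, 18 were tested, and 7 were called higher and 2 lower, beside 20.4% and 19.6% of all genes tested. The median log2 fold change was 0.15. With relative log expression factors in place of TMM, 6 were called higher and 3 lower, and with total counts alone 9 and 2. Tcf3, the class I helix-loop-helix partner of Tcf21, rose from 78.1 ± 2.44 to 122 ± 1.25 CPM (SD, n = 3 each; 0.65, edgeR adjusted p = 1.14e-05), in cells with no Tcf21 read. Id3, an inhibitor of such dimers, fell from 132 ± 5.89 to 77.1 ± 5.50 CPM (-0.77, adjusted p = 2.14e-05). Ldb1, the scaffold that LIM homeodomain factors bind, and Tle4, a corepressor recruited by several factor families, were both called higher at 0.35 (adjusted p = 0.0054 and 0.00501). The genes tested on chromosome 19, which holds both, had a median log2 fold change of 0.19. The median was 0.31 on chromosome 10, which holds Tcf3, and -0.17 on chromosome 4, which holds Id3.

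Among 28 genes reported as podocyte targets of these factors, 26 were tested. Of these, 6 were called higher and 10 lower, beside 20.4% and 19.6% of all genes tested. The median log2 fold change was -0.21. Sulf1, a heparan sulfate sulfatase and a reported target of Wt1, fell from 320 ± 37.4 to 12.3 ± 1.63 CPM (SD, n = 3 each; -4.70, edgeR adjusted p = 1.08e-08). Podxl, the sialomucin of the podocyte surface, was at 21.2, 11.3 and 9.84 CPM in the WT line and 7.93, 7.43 and 6.4 CPM in the AS line (-0.97, adjusted p = 0.0146). Its groups did not overlap, and WT replicate 1 was again highest. Nphs1 was called lower (-3.47, adjusted p = 0.00276) from very few counts, and Plce1, a phospholipase mutated in nephrotic syndrome, fell with it (-1.96, adjusted p = 6.53e-05). The chemokine gene Cxcl12 and the ephrin gene Efnb2 moved the other way, with log2 fold changes of 1.17 and 0.71 (adjusted p = 9.07e-06 and 1.93e-05). Sulf2, named after its values were seen, also rose, from 323 ± 12.6 to 500 ± 24.8 CPM (0.63, edgeR adjusted p = 5.87e-05). Col4a3 itself is on this list.

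**Figure D4:**
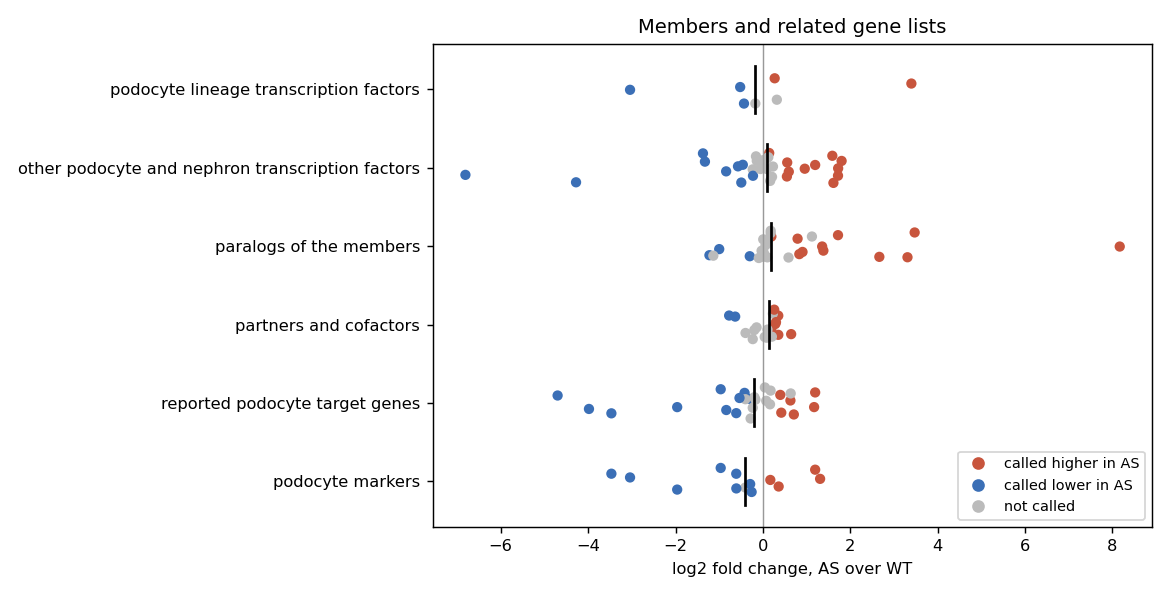
Log2 fold change, AS over WT, of every gene tested in 6 lists, 1 point per gene, with the median of the list as a black bar. Red points were called higher, blue lower and gray were not called by edgeR. Medians lie between -0.40 and 0.18; the point beyond 8 is Foxa2, whose WT samples hold no count, so that its position is a fitted value without a bound.

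Markers of podocytes and of other kidney cells were counted beside these results. Each count below stands beside 20.4% called higher and 19.6% called lower over all genes tested. Of the 15 podocyte markers, which include Wt1, 13 were tested, 4 were called higher and 8 lower, with a median log2 fold change of -0.40. Of 10 mesangial and stromal markers, 9 were tested, 1 was called higher and 4 lower, and their summed level was 9800 to 12300 CPM in the WT line and 9520 to 11100 CPM in the AS line. Most of that was Acta2, smooth muscle actin, at 6701 ± 1094 and 6759 ± 588 CPM (SD, n = 3 each), a gene named after its values were seen. Col1a1, the fibrillar collagen gene, rose from 24.3 to 477 CPM (4.29, edgeR adjusted p = 1.87e-07), while the pericyte and mesangial genes Cspg4, Pdgfrb and Tagln fell (-4.54, -1.12 and -0.54). Of 10 parietal epithelial markers 9 were tested, 1 was called higher (Cd24a) and 5 lower, among them Cldn2 (-3.17), Krt19 (-3.60) and Pax2 (-0.57), with sums of 1680 to 1970 and 1670 to 1770 CPM. Tubular and collecting duct markers summed to 435 to 499 CPM in the WT line and 462 to 611 CPM in the AS line, and Cdh16 was called higher and Aqp1 lower among the 5 tested of 10. Endothelial markers were low, at 47.2 to 55.5 and 39.7 to 44.5 CPM in sum, and the 3 tested of 10 (Flt1, Ehd3 and Kdr) were called lower. Leukocyte markers summed to 11.6 to 15.4 and 5.43 to 7.41 CPM, and 1 of the 4 tested of 8 (Csf1r) was called lower. Tie1, Cldn5, Umod, Aqp2, Adgre1 and Cd3e, defining markers of these other cell types, had no count in any sample. The part of these markers in the values of Wt1 and Lmx1b was not tested.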

How the data were processed

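Bulk RNA-seq libraries from 3 samples of each line were analysed. The values the authors deposited are raw counts, the whole number of reads on each gene, and were not normalized. The submitters' processing notes name FastQC, Trim Galore, STAR, edgeR and the build mm39; which tool counted the reads, whether by strand and on which annotation release was not given in the sources used here. GENCODE M21 (GRCm38) held 51880 of the 57132 identifiers and was used for names, gene order, exon length and relative position only. The remaining identifiers took 0.363% of all counts.

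In R 4.3.3, edgeR 4.0.16 was used with filterByExpr (a minimum count of 10 and a minimum total of 15), TMM factors and the two-sided quasi-likelihood test on genotype alone, with Benjamini-Hochberg adjustment and an adjusted p under 0.05 as the threshold. Standard errors are approximate and come from dividing a log2 fold change by the root of its F statistic. The study names limma-voom, which was run as an alternative (limma 3.58.1), as was DESeq2 1.42.0. The scripts were tested on simulated data. The smallest p that exact permutation of 3 against 3 samples allows is 0.1. Total counts were 45417221 to 54290968 per sample; limits of detection hold for counting error alone, because the reads carry no molecular identifiers. The distance to other genes was computed with a prior count of 2. Start regions and their sequences are from RefSeq (GRCm38.p6), and 5 of the 8 members matched.

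The members and lists were chosen with earlier results of these data known. Named genes are the 8 members, Col4a3, from each list the 4 tested genes with the smallest adjusted p and the defining podocyte genes Nphs1, Podxl and Synpo, the nearest tested genes on either side of a member, the 2 genes most like each member, paralogs called with a mean of at least 1 CPM, and antisense or overlapping genes; some genes that this rule names are not reported here. Fendrr, Acta2, Dag1, Actn4, Sulf2, Foxa2, Lmx1a and the markers at 0 were named after their values were seen. Alternatives were other scaling factors, DESeq2, limma-voom, other filters, a stricter threshold, a replicate block, removal of the chromosome median, another gene length, and each sample left out in turn.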

Additional observations from a re-analysis of the deposited data

How the results depend on the processing

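Of the 98 values that the 7 tested members took under alternatives, 95 had the sign of the main fit and, where a test was made, its call. These include values of Foxd1, for which no direction can be given. The 7 values with the chromosome median removed carry no test. Over the samples left out, Foxc2 ranged from 0.23 to 0.32 and lost its call without AS replicate 3 (0.23, adjusted p = 0.0523), and Foxd1, never called, ranged from -0.28 to 0.061 and turned its sign without WT replicate 1. With the median of its chromosome removed, Foxc2 was at -0.036. Per length with the longest transcript in place of all exons, Wt1 was at 6.67 in WT and 0.811 in AS and Gata3 at 1.68 and 2.09 CPM per kilobase. Members called were 5, or 4 without AS replicate 3 and 4 at an adjusted p under 0.01. Deviations of samples with the same number correlated at r = 0.147, 0.0939 and 0.0526, and those with different numbers at -0.13 to 0.0571. WT replicate 3 correlated slightly better with AS replicate 2 (0.0571) than with its own number. These small values cannot decide whether the numbers mark shared sets. The main fit did not take them as pairs. With a replicate block, 7066 genes were called in place of 6517, and 5 members. Log2 fold changes under the block were -3.06 for Wt1 and 3.42 for Lmx1b, and no call among the members changed. The call counts are from 3 samples of 1 line each, and Tcf21, Wt1os and Nphs1 are limited by depth.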
